A study of Mus musculus with 6 samples.

Results

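Transcripts of the oligodendrocyte lineage and of myelin were followed through an affinity purification of ribosomes from serotonin neurons. The 30 genes were taken from a fixed list of names, and every probe set whose only gene symbol in the platform annotation was one of them was used, which gave 68 probe sets for 28 of the 30 genes. Levels of Trf and Neu4 were not analysed here. These 28 genes were set against 18193 genes on the array, of which 10581, the 28 among them, passed a filter on low values. All mice were of the Slc6a4 JD60 line, which carries its transgene on a bacterial artificial chromosome, with a mixed FVB and c57/bl6j background, so the tag was driven by the regulatory region of the serotonin transporter gene in both groups, and every sample came from transgenic mice. Each sample pooled 5 adult mice, males and females, aged 6 to 12 weeks, and the tissue was midbrain and brainstem with the cerebellum removed. The IP group held 3 samples of RNA from the immunoprecipitated ribosomes, the technique known as translating ribosome affinity purification (TRAP). The other 3 samples, called unbound, were RNA that stayed behind in the same preparations, which the labels call total tissue RNA. The labels name no treatment for either group.

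Oligodendrocytes wrap axons in myelin, a compacted stack of membrane rich in a few proteins and in galactolipids. They arise from dividing precursors that carry the platelet-derived growth factor receptor alpha and the NG2 proteoglycan, pass through a short premyelinating stage, and then switch on the myelin genes under Sox10, Olig2 and Myrf. Midbrain and brainstem are rich in myelinated tracts, and serotonin neurons do not make myelin. In a purification aimed at those neurons, oligodendrocyte transcripts are therefore commonly read as a gauge of the background carried along with the tagged ribosomes.

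Apart from the arrays, the start regions of members with an entry in a RefSeq promoter table (GRCm38.p6) were searched for letters recognised by lineage transcription factors. The table held 27 promoters for 22 members, and none for Mbp, Sox10, Olig1, Fa2h, Cspg5, Myrf, Bcas1 and Trf. The window was the 250 bases before each start, read on both strands. The motif of MYRF, searched as CTGGCAC or CTGGTAC, was present for 3 of 22 members (13.6%), namely Mag, Cnp and Mog, and for 6.79% of the 27025 genes in the table. The SOX core, searched as ACAAAG or ACAATG, was present for 8 members (36.4%) and for 28.2% of all genes, and the E-boxes CAGATG or CATATG for 6 members (27.3%) and for 19.4% of all genes. Of the 22 members with an entry 14 were mature myelin genes, and these held all 3 of the MYRF matches and 6 of the 8 genes with SOX letters. The 6 precursor genes with an entry are too few to compare. In no member did matches of different motifs overlap. The 4 windows printed here are those of the 3 genes with MYRF letters, in capitals, and that of Mobp, which held 6 matches to the SOX core, also in capitals. They lie at chr7:30914864-30915113 on the minus strand for the Mag start shown, chr11:100574689-100574938 on the plus strand for Cnp, chr17:37023399-37023648 on the minus strand for Mog, and chr9:120149492-120149741 on the plus strand for Mobp. Each runs 5′ to 3′ on the strand of its gene and ends just before the start.
Mag: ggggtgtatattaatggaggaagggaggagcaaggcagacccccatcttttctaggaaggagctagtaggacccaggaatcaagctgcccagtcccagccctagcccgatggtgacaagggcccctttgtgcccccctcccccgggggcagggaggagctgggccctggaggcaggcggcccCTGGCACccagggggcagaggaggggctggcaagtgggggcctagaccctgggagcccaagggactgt
Cnp: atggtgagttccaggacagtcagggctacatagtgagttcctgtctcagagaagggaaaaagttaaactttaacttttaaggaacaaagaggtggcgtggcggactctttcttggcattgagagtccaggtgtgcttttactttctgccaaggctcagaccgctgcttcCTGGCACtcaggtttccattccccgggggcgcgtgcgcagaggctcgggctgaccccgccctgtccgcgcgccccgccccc
Mog: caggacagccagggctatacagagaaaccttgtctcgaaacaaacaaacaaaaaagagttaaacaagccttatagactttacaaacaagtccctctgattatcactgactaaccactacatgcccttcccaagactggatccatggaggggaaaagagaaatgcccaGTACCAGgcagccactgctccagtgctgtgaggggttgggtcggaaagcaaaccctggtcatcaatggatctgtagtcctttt
Mobp: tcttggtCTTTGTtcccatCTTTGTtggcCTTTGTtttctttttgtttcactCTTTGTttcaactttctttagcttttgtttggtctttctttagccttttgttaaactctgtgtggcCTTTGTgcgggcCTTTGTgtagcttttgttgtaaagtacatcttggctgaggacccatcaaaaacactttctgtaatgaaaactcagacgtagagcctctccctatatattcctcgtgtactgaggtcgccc
The MYRF letters began 68 bases before the start shown for Mag, 81 before that of Cnp, and, on the opposite strand, 83 before that of Mog. In Mobp all capitals read CTTTGT, the reverse complement of ACAAAG. A match of letters is a description of the sequence and says nothing of binding.

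Each of the 6 arrays gave 45101 log2 values, which the authors had normalised within each group but not between the groups. To set the groups side by side, each IP value was changed by -0.23, which made the means of 18 biotinylated hybridisation controls equal, and all levels below are log2 expression after that step. A log2 value of 5 was taken as the detection limit, and genes that reached it on 3 or more of the 6 arrays were tested. A gene was called where limma's adjusted p was under 0.05 and the difference at least 2-fold. Across probe sets, Pearson's r was 0.996 to 0.999 between IP arrays and 0.994 to 0.997 between unbound arrays. Of the targeted cell type, 6 of 6 serotonin neuron markers (Slc6a4, Tph2, Ddc, Slc18a2, Gch1 and Maob) were called higher in IP, as were 10.4% of all tested genes. The median log2 change of these markers was 5.48. The number of arrays, 3 per group, limits the precision of every value.

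Nearly all oligodendrocyte transcripts were lower in the IP RNA than in the RNA left behind. Of 28 tested members 27 fell (limma, adjusted p under 0.05 and at least 2-fold), none rose, and Cspg5 was not called. Over all tested genes 41.1% were called lower and 10.4% higher. The median log2 change of the members was -3.41, against -0.65 over all tested genes, and 17 members were at -3 or lower, as were 10.6% of all tested genes. That count and median take IP values below the detection limit as measured. With such members at their bound, an alternative chosen after the data had been seen, the median was -2.96. In 27 of 28 members every IP array lay below every unbound array, which was so for 59.1% of all tested genes. For 6 members (Myrf, Enpp6, Olig2, Pdgfra, Cspg4 and Vcan) all 3 IP arrays lay below the detection limit, and 12.8% of all tested genes were both called lower and below the limit on every IP array. Such genes could pass the filter only through the unbound arrays, which fixed their direction, so they are given as bounds with no p. The other 22 were above the limit on at least 1 array of each group, and 21 of these fell. The matching share over all genes so measured was not computed. The 41.1% above is not that share, since it includes the genes below the limit on every IP array. The groups differ in cell type and in ribosome binding at once, and in pooled tissue fewer cells of a type and less RNA per cell cannot be told apart.

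**Figure D1:**
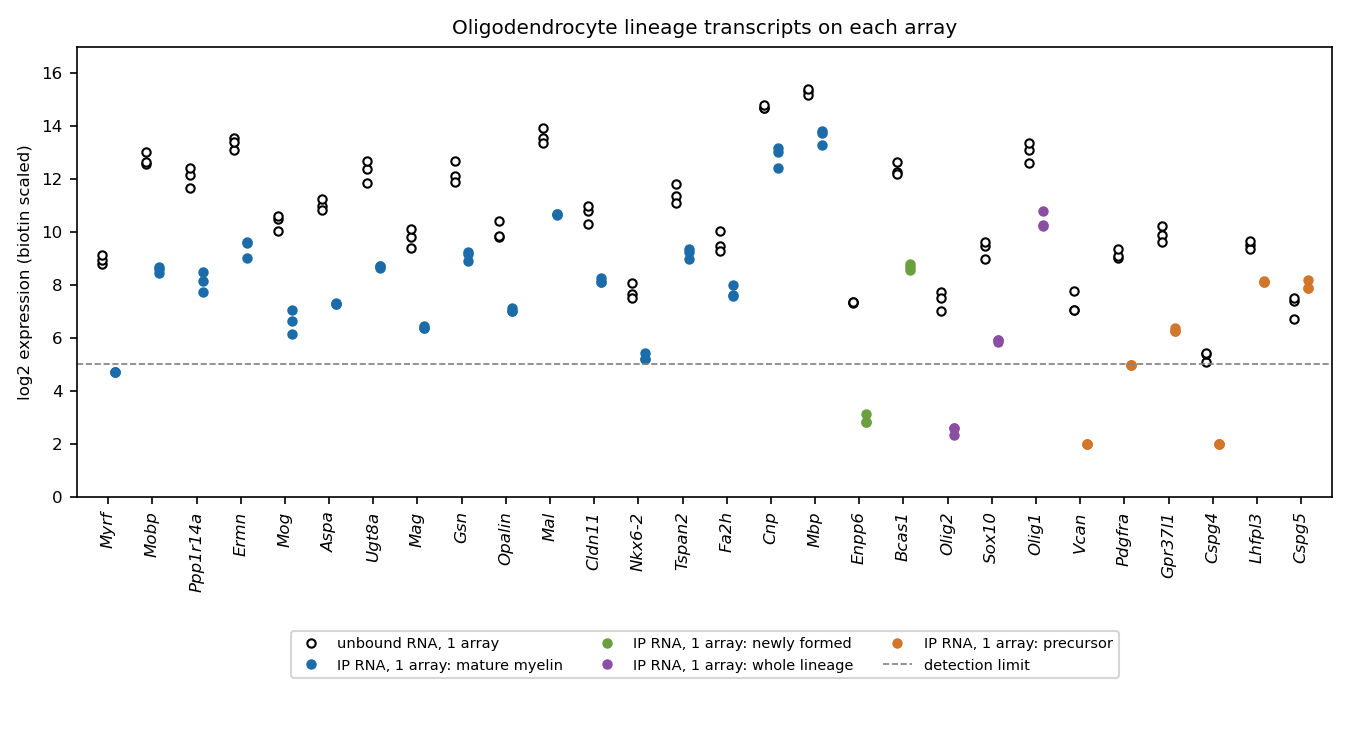
Log2 expression of the 28 tested members on each array, with unbound arrays as open circles and IP arrays as filled circles coloured by stage, ordered within each stage by the size of the change. The dashed line is the detection limit of 5. Filled circles lie below open circles for every gene but Cspg5, at the right end, and those of Cspg4 and Vcan sit at the floor of the IP group.

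Among the structural proteins of myelin, Mbp encodes myelin basic protein, which holds the cytoplasmic faces of the membrane together and whose mRNA is carried into the myelinating processes. It stood at 13.31, 13.83 and 13.74 on the IP arrays and at 15.33, 15.18 and 15.40 on the unbound arrays. No IP value came near an unbound one, and Mbp fell by 1.67 ± 0.16 (SE) on the log2 scale (limma, adjusted p = 0.000129). For the probe sets used and the biotin scaling, that was the smallest change of the mature genes. After joint quantile normalisation, described further on, Fa2h (-1.21) changed less than Mbp (-1.96). Cnp, the phosphodiesterase of uncompacted myelin, was at 12.44, 13.18 and 13.05 in IP and at 14.69, 14.68 and 14.81 in unbound RNA. Its change was -1.84 ± 0.20 (SE, adjusted p = 0.000251), and IP replicate 1 was the lowest IP array for both genes. Mobp, a small basic protein of compact myelin whose mRNA also travels into the processes, showed a much larger difference. It read 8.67, 8.44 and 8.62 in IP against 12.56, 12.64 and 13.02 in unbound RNA, a change of -4.16 ± 0.14 (SE, adjusted p = 1.88e-06). For the probe sets used, the 95% intervals of Mobp (-4.52 to -3.81) and Mbp (-2.06 to -1.28) did not meet. This did not hold for every probe set of these genes. In Mobp 1436263_at was at -3.02 (-3.65 to -2.38), and in Mbp 1454651_x_at was at -3.14 (-3.51 to -2.77).

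The surface and adhesion proteins fell by amounts between these. Mog, an immunoglobulin-family protein of the outermost lamella, was at 7.05, 6.14 and 6.65 in IP and at 10.49, 10.06 and 10.62 in unbound RNA. That was a change of -3.77 ± 0.27 (SE, adjusted p = 3.42e-05), with the widest scatter of the members among IP arrays. Mag, the glycoprotein that faces the axon, was at 6.44, 6.37 and 6.37 in IP and at 9.39, 9.81 and 10.12 in unbound RNA (-3.37 ± 0.19 SE, adjusted p = 1.23e-05). Mal, a proteolipid of membrane traffic, was at 10.63, 10.70 and 10.70 against 13.55, 13.38 and 13.94 (-2.95 ± 0.15 SE, adjusted p = 9.01e-06). In Mag and Mal 2 of the 3 IP values were identical, while the unbound arrays spread by more than 0.5, and the groups stayed far apart. Ermn, an actin-associated protein of late oligodendrocytes, fell by 3.96, from a mean of 13.37 ± 0.24 to 9.41 ± 0.34 (SD, n = 3). Opalin, a transmembrane glycoprotein, was at -2.96. Cldn11, the claudin of myelin tight junctions, was at -2.53, and the tetraspanin gene Tspan2 at -2.23.

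Genes of myelin lipids and of oligodendrocyte metabolism fell as well. Ugt8a makes galactosylceramide, the main glycolipid of myelin, and was at 8.72, 8.73 and 8.64 in IP and at 12.38, 11.84 and 12.70 in unbound RNA. Fa2h, which hydroxylates the fatty acids of those lipids, was at 7.64, 7.99 and 7.57 against 9.48, 9.29 and 10.03. Both act on the same lipids. The change was -3.61 ± 0.22 for Ugt8a (SE, adjusted p = 1.73e-05) and -1.87 ± 0.22 for Fa2h (SE, adjusted p = 0.000365), and the 95% intervals (-4.14 to -3.08 and -2.41 to -1.33) did not meet. Aspa, which splits N-acetylaspartate, fell by 3.73, from a mean of 11.02 ± 0.22 to 7.29 ± 0.02 (SD, n = 3). Gsn, the actin-severing protein gelsolin, which vascular cells also make, fell by 3.13. Ppp1r14a, an inhibitor of myosin phosphatase, fell by 3.97, with 7.74, 8.50 and 8.14 in IP against 11.68, 12.17 and 12.43 in unbound RNA.

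The transcription factors of the lineage were lower too. Sox10, listed as a gene of the whole lineage, was at 5.86, 5.93 and 5.93 in IP and at 8.98, 9.49 and 9.61 in unbound RNA (-3.45 ± 0.17 SE, adjusted p = 8.51e-06). Olig1 was well measured in both groups, at 10.26, 10.81 and 10.24 in IP and 12.62, 13.12 and 13.38 in unbound RNA, and fell by 2.61 ± 0.25 (SE, adjusted p = 0.000130). Its close relative Olig2 had no IP array above the detection limit, at 2.61, 2.60 and 2.33, against 7.75, 7.03 and 7.52 in unbound RNA. Set against the limit, Olig2 was at least 5.39-fold lower in IP. Myrf, the membrane-tethered factor that turns on myelin genes, stood at 4.71 on all 3 IP arrays, just under the limit, and at 8.78, 8.94 and 9.14 in unbound RNA. It was at least 15.5-fold lower. Nkx6-2, a homeodomain factor of myelinating cells, was a little above the limit in IP (5.20, 5.20 and 5.45) and fell by 2.46 from an unbound mean of 7.74 ± 0.29 (SD, n = 3).

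Both genes of newly formed oligodendrocytes were lower in IP. Bcas1, which marks cells starting to myelinate, was at 8.56, 8.78 and 8.68 in IP and at 12.27, 12.19 and 12.64 in unbound RNA, a fall of 3.70 ± 0.14 (SE, adjusted p = 2.75e-06). Enpp6, a choline phosphodiesterase made at that stage, was below the limit in IP (2.84, 3.11 and 2.84) and at 7.33, 7.37 and 7.37 in unbound RNA. It was at least 5.13-fold lower.

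The precursor genes spread most widely. Pdgfra, the growth factor receptor that defines precursors, stood at 4.99 on every IP array and at 9.04, 9.10 and 9.37 on the unbound arrays. With the IP arrays counted at the limit, it was at least 18.0-fold lower. Vcan, a chondroitin sulfate proteoglycan of the matrix, was at 1.98 on every IP array, the lowest value of the group, and at 7.77, 7.06 and 7.06 in unbound RNA, at least 4.92-fold lower. Cspg4, the NG2 proteoglycan that pericytes also carry, shared that floor in IP. Its unbound arrays (5.09, 5.41 and 5.45) were barely above the limit, which allows only a bound of at least 1.24-fold. Gpr37l1, an orphan receptor that astrocytes also make strongly, fell by 3.61 to 6.39, 6.26 and 6.26 in IP from 9.90, 9.63 and 10.22.

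Lhfpl3 and Cspg5 had the highest changes of all members. Lhfpl3, a tetraspan membrane protein, was at 8.11, 8.14 and 8.11 in IP and at 9.52, 9.35 and 9.67 in unbound RNA, a fall of 1.39 ± 0.10 (SE, adjusted p = 3.71e-05). The arrays of each group lay within 0.4 of each other and the groups did not overlap. Cspg5, neuroglycan C, which neurons also make, was the only member with a positive change. It was at 8.20, 7.89 and 7.89 in IP and at 6.70, 7.40 and 7.53 in unbound RNA, so every IP array lay above every unbound array. The change of 0.79 ± 0.24 (SE, 95% interval 0.21 to 1.37, limma, adjusted p = 0.0219) was 1.73-fold and short of the 2-fold limit. Without scaling and under quantile or either median scaling, described further on, Cspg5 was called higher (1.02 to 1.82). In those settings 14.1% to 33.9% of all tested genes were higher. The change turned to -1.89 when the groups were scaled to the poly-A spike controls, where 97.1% of all tested genes were lower. All IP arrays were above all unbound arrays for 23.9% of tested genes.

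**Figure D2:**
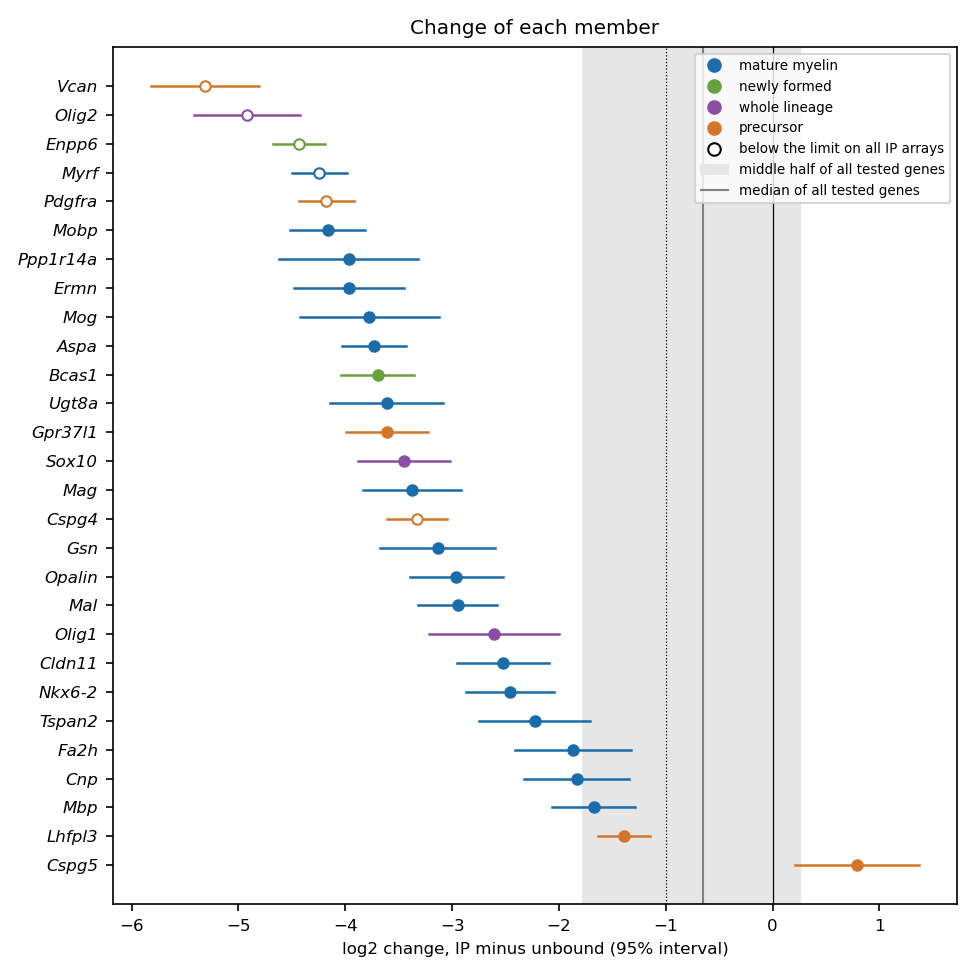
Log2 change (IP minus unbound) of each tested member with its 95% interval from limma, coloured by stage, with open circles for the 6 genes below the detection limit on every IP array, whose values and intervals rest on unmeasured levels. The grey band runs from the lower to the upper quartile of all tested genes, with their median of -0.65 as a grey line, and the dotted line marks a 2-fold fall. Most members lie left of the band, while Mbp and Lhfpl3 lie inside it and Cspg5 lies to its right.

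Mature and precursor genes could not be ranked by how far they fell. The 17 tested mature genes had a median log2 change of -3.13 and the 6 tested precursor genes one of -3.47, which places mature genes 0.33 higher. With genes below the limit in IP entered at their bound, the medians were -3.13 and -1.85 and the order turned round. Of the precursor genes 3 of 6 lay below the limit on every IP array, and of the mature genes 1 of 17, so the size of the fall is known for few of the former.

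The level left in IP, as a share of the unbound level, depends on the scaling and is given first for the biotin controls. For the 21 members that fell and were measured in IP, the share ran from 5.58% for Mobp (95% interval 4.37% to 7.12%) to 38.0% for Lhfpl3 (32.1% to 45.1%), with a median of 11.4%. It was 7.31% for Mog, 9.65% for Mag, 12.9% for Mal and 31.4% for Mbp (24.0% to 41.1%). Over the 16 mature genes among them the range was 5.58% to 31.4%, so no single share described these genes for the probe sets used. Both ends of that range depend on the probe set. In Mbp the share ran from 11.3% (1454651_x_at) to 73.9% (1425264_s_at, not called). In Cnp 1418980_a_at left 13.6% and 1449296_a_at 14.2%, both less than the set used. In Mobp 1436263_at left 12.4%. At the median over all tested genes the share was 63.7%. Over the other 5 scalings described further on, the share ran from 0.87% to 11.4% for Mobp, from 4.90% to 64.0% for Mbp and from 5.95% to 77.6% for Lhfpl3, with the lowest share from the poly-A controls and the highest from the median of all probe sets.

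Several members were read by more than 1 probe set, which allowed the change to be measured again in the same RNA. Of the 68 probe sets, 49 passed the filter, and of these 47 were called lower, none higher and 2 were not called, when every probe set on the array was tested by itself (43.0% of probe sets were lower). For 7 of the 8 genes with more than 1 tested probe set all of them were called lower, and the distance between the largest and the smallest change had a median of 0.86. It was 0.02 for Ermn and 2.70 for Mbp. The 8 probe sets of Mbp ranged from -3.14 (1454651_x_at, adjusted p = 7.81e-06) to -0.44 (1425264_s_at, adjusted p = 0.0624, not called). The probe set used for the gene, 1456228_x_at at -1.67, gave the second smallest change of the 8. In Cnp the probe set used gave -1.84, while the other 2 gave -2.88 and -2.82. The smaller falls of Mbp and Cnp thus did not hold for every probe set of these genes. The brightest probe set of each carries the suffix _x_at, which the manufacturer gives to sets with probes that may bind unrelated transcripts. In Mbp the sets 1454651_x_at (-3.14) and 1436201_x_at (-2.46) carry it too, while 1425264_s_at (-0.44) does not. The part of binding to unrelated transcripts in these values was not tested. In Mobp the 5 probe sets lay between -4.16 and -3.02, and in Gsn the 4 tested ones between -4.16 and -3.13. For 1441308_at and 1450088_a_at of Mobp and 1415812_at of Gsn, all 3 IP arrays lay below the detection limit. The last gave the -4.16 of Gsn and, as a bound, was at least 10.6-fold lower. Like the sets of members below the limit in IP, these could pass the filter only through the unbound arrays, which fixed their direction. The counts called lower include such sets. The 19 probe sets that were not tested included 7 of the 8 for Vcan.

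**Figure D3:**
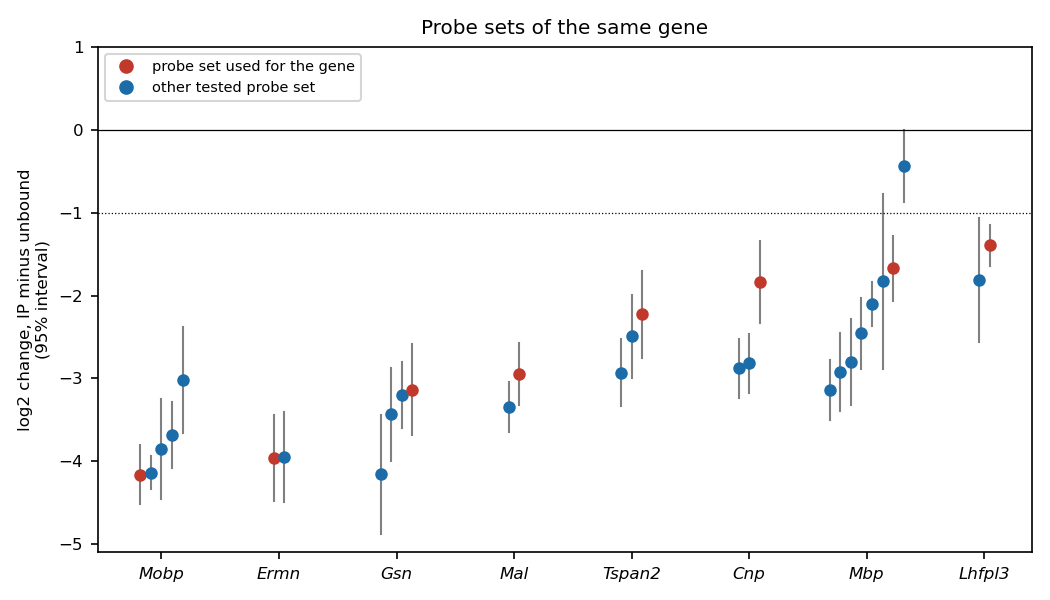
Log2 change (IP minus unbound) with its 95% interval for each tested probe set of the 8 members that have more than 1, with the probe set used for the gene in red. The dotted line marks a 2-fold fall. The probe sets of Ermn coincide, while the 8 of Mbp span 2.70 on the log2 scale, from -3.14 to -0.44. The values of 1441308_at and 1450088_a_at of Mobp and 1415812_at of Gsn rest on IP levels below the detection limit.

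Among the unbound arrays 1 was the highest for most members. Unbound replicate 3 was the highest of the 3 unbound arrays for 24 of 28 members (85.7%) and for 37.0% of all tested genes, and it was the lowest for none of the members. Unbound replicate 2 was the lowest for 16 members (57.1%) and for 49.7% of all tested genes. The median deviation from the group mean was 0.27 in unbound replicate 3 over the members and 0.04 over all tested genes. Among 38 tested other genes of the lineage, replicate 3 was highest for 24 (63.2%), and among 12 astrocyte markers for 5 (41.7%). The biotin controls of the unbound arrays had deposited means of 11.15, 11.32 and 11.32, so replicates 2 and 3 hardly differed there. Their poly-A controls had deposited means of 7.02, 6.17 and 6.34. The source of the higher member values in unbound replicate 3 was not tested. In IP the values moved little. The 3 IP arrays were identical for 4 members (Myrf, Pdgfra, Cspg4 and Vcan) and for 20.1% of all tested genes, whereas no member was identical in unbound RNA. The SD of 0 of those 4 members does not measure biological spread. Another 9 members, Mag and Mal among them, had 2 identical IP values, so their IP SD may understate biological spread too. The share of all tested genes with 2 identical IP values was not computed. The median SD of the members was 0.12 in IP and 0.29 in unbound RNA.

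Other genes of the lineage were also mostly lower. Of 44 listed, 40 had a probe set, 38 were tested, 36 fell, none rose and 2 were not called, beside the 41.1% of all tested genes called lower. Their median was -3.28, or -2.73 with the 11 genes below the limit in IP at their bound. Among those measured in both groups the lowest changes were those of Il33, a nuclear cytokine (-4.27), and of the transcription factors St18 (-4.23) and Tcf7l2 (-3.99). At the other end stood Sirt2, a tubulin deacetylase found in myelin, at -1.16. Sirt2 did not reach 2-fold without scaling (-0.93) and under quantile or median scaling (-0.94, -0.37 and -0.13). Omg, a myelin glycoprotein that neurons also make, was at -0.38 (adjusted p = 0.0176) and was not called, and its sign turned under both median scalings (0.42 over expressed and 0.65 over all probe sets), while the poly-A scaling gave -3.06, a call lower. Cacng4, an auxiliary subunit of AMPA receptors found in precursors and in neurons, was at 0.71 (adjusted p = 0.00530), short of 2-fold. It was called higher under quantile and both median scalings (1.48, 1.51 and 1.74) and turned to -1.96 under the poly-A scaling.

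Markers of other non-neuronal cells were lower alongside the members. All 12 astrocyte markers were called lower, but 5 of them lay below the detection limit on every IP array, which fixed their direction. Their median was -3.40, and -2.79 with those 5 at their bound. Below the limit on every IP array were also 4 of 6 tested microglial markers (median -3.61, or -1.85 at the bound), 4 of 4 endothelial (-3.81, or -1.65) and 3 of 4 pericyte ones (-3.49, or -2.02), so few of these lists' genes were measured in both groups. Csf1r and C1qb of microglia and Rgs5 of pericytes were above the limit on every IP array and fell. On the log2 scale the summed level of the astrocyte list was 13.46 to 13.70 over the IP arrays and 15.52 to 15.82 over the unbound ones. That of the members was 14.53 to 14.99 and 16.96 to 17.30. For microglial markers the sum was 7.32 to 7.34 (IP) and 10.73 to 10.90 (unbound), for endothelial ones 5.81 to 5.86 and 8.47 to 8.88, and for pericyte ones 6.93 to 7.28 and 9.78 to 10.38. Each sum takes in every gene of its list with a probe set, tested or not. All endothelial genes with a probe set lay below the limit on every IP array, so the endothelial IP sum rests on unmeasured levels. Among markers above the limit in unbound RNA, Cx3cr1 and Tmem119 of microglia and Abcc9 of pericytes stood at the floor of the IP group. The microglial markers C1qc, P2ry12, Trem2 and Itgam, the endothelial Pecam1, Cdh5, Tek, Flt1 and Kdr and the pericyte Anpep and Kcnj8 were below the limit on all 6 arrays and were not tested. Of 11 pan-neuronal genes 3 fell, 2 rose and 6 were not called, with a median of -0.41. Those that fell were Nefm (-3.04), Map2 (-2.83) and Nefl (-1.88), and those that rose were Uchl1 (1.78) and Tubb3 (1.47). Falls as large as those of many members were thus also seen in neuronal genes. The share over all tested genes was 41.1% lower and 10.4% higher. The part of Gpr37l1, Gsn or Cspg4 that comes from astrocytes, vessels or pericytes was not tested.

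**Figure D4:**
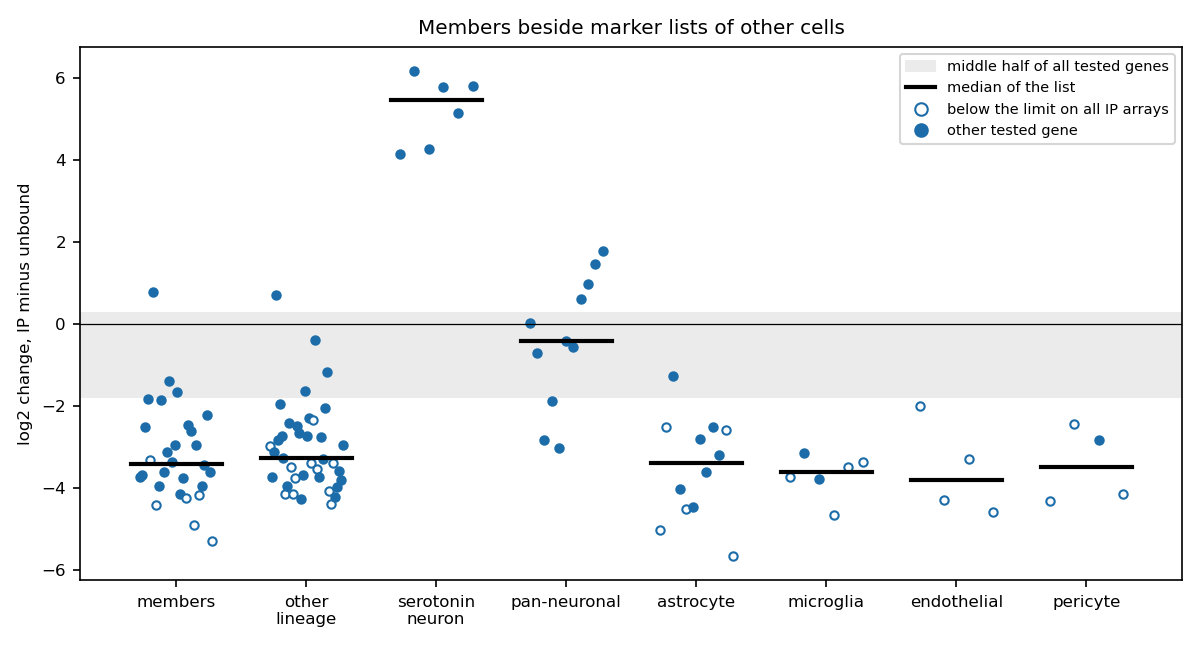
Log2 change (IP minus unbound) of every tested gene of the members, of the other lineage genes and of 6 marker lists, with the list median as a black bar and open circles for genes below the detection limit on every IP array. The grey band runs between the quartiles of all tested genes. Most points of the microglial, endothelial and pericyte lists are open, so their medians rest on values below the limit. The member median (-3.41, or -2.96 at the bound) lies far below that of the serotonin neuron markers (median 5.48).

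The size of these changes depends on how the separately normalised groups are brought together. The member median was -3.18 without scaling, -2.88 after joint quantile normalisation, -2.65 and -2.42 when arrays were centred on the median of expressed or of all probe sets, and -6.09 with the poly-A spike controls. All of these but quantile normalisation add a constant to every value of an array or group, so they move the members and the other genes alike. Under quantile normalisation, which can move them apart, the member median lay at -2.92 relative to the median of all tested genes, beside -2.76 under the biotin scaling. The number called lower was 27, 25, 24, 22 and 28 in the same order, of 28, 27, 27, 27 and 28 tested. Over all tested genes 35.2% were then lower and 14.1% higher without scaling, 23.5% and 23.9% after quantile normalisation, 23.5% and 27.2% with the expressed median, 19.5% and 33.9% with the median of all probe sets, and 97.1% and 0.34% with the poly-A controls. The calls that were lost concerned the smallest changes. Lhfpl3 was no longer called under quantile normalisation (-0.76) or either median (-0.60 and -0.37), Mbp under either median (-0.87 and -0.64), and Cnp (-0.81) and Fa2h (-0.84) under the median of all probe sets. Cspg5 was called higher in 4 of these 5 settings (1.02 to 1.82) and lower with the poly-A controls (-1.89). No other member changed direction under any scaling in which it was tested. With the biotin scaling kept, 27 of 28 members were lower without a filter (29.7% of all genes lower and 6.94% higher), 26 of 27 with the limit at 7 (37.7% and 11.1%), 25 of 26 with the mean of a gene's probe sets (36.1% and 10.1%) and 27 of 28 with the replicate number as a block (41.2% and 10.5%).

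**Figure D5:**
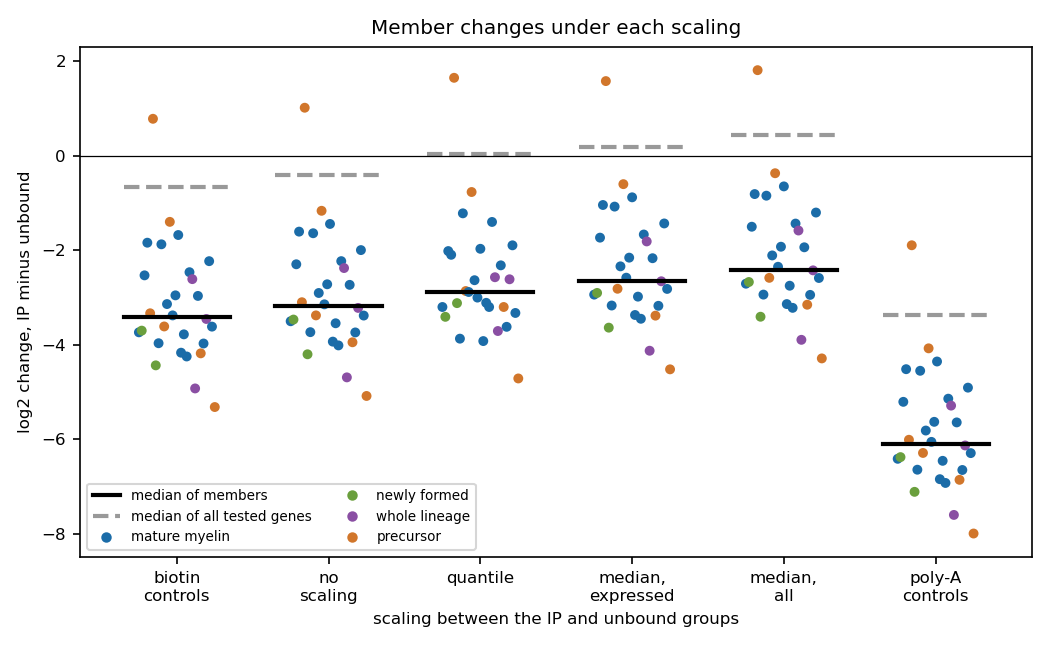
Log2 change (IP minus unbound) of each tested member under 6 scalings between the groups, coloured by stage, with the member median as a black bar and the median of all tested genes as a dashed grey bar. The member median runs from -6.09 with the poly-A controls to -2.42 with the median of all probe sets, both bars move together by construction except under quantile normalisation, and the single high point is Cspg5.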

How the data were processed

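RNA from 3 IP and 3 unbound samples, amplified from 20 ng of total RNA, was read on Affymetrix mouse expression arrays, per the labels' protocols. The authors deposited log2 values made with GCRMA (background correction, normalisation and summary per probe set) applied within each group, per the series' design text and the submitters' processing notes. Its version was not stated in any source used here, and the log2 scale was read from the values' range. Quantile-type normalisation within a group can narrow its spread.

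Probe sets were named from the platform annotation (34945 with 1 symbol, 932 with several, 9160 with none, 64 controls). The probe set with the highest mean of the 6 arrays stood for its gene. The filter was applied after scaling. limma 3.58.1 in R 4.3.3 (lmFit, eBayes, group alone, two-sided) was run over all 10581 genes with Benjamini-Hochberg adjustment and was tested on simulated data. Levels of different probe sets were not ranked, and the summed level of a list serves only to set IP beside unbound. For genes below the limit on every IP array, folds set the unbound mean against IP arrays counted at no less than 5.

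Unbound labels name the replicate they come from, and deviations of same-numbered samples correlated at 0.27, 0.16 and 0.10, so the numbers were taken to pair the samples, although IP replicate 3 correlated best with unbound replicate 2 (0.21). A fit with this block stands beside the unblocked one. Every member is named, with the 3 lowest and the 3 highest changes of the other lineage genes measured in both groups. The members, stage groups, lists and alternatives were chosen with earlier results of these data known. Samples are biological replicates, per the labels. No multiple-symbol probe set was used.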

Additional observations from a re-analysis of the deposited data

How the results depend on the processing

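With the replicate numbers as a block, 27 of 28 members were lower and none was higher, as without it. No call of a member or of a named other gene of the lineage changed. Leaving out each array in turn left 21 to 27 members lower and none higher. Members below the limit in IP cannot pass the filter with only 2 unbound arrays, so only 22 were tested there. Over all genes those settings gave 2897 to 4377 lower genes, the lowest without unbound replicate 1. The mature median ran from -3.20 to -2.85, the precursor median from -3.49 to -1.32 (-1.39, -1.48 and -1.32 without unbound replicates 1, 2 and 3) and mature minus precursor from -1.74 to 0.45. Without scaling and with quantile, expressed-median, all-median and poly-A scaling, members called higher numbered 1, 1, 1, 1 and 0. In the last 4 of these settings lower genes numbered 2473, 2487, 2057 and 9992 and higher genes 2514, 2878, 3581 and 35, and the last 3 gave a mature median of -2.34, -2.10 and -5.81. In all 5 the precursor median was -3.23, -2.86, -2.81, -2.58 and -6.15, and mature minus precursor turned to -0.020 with quantile normalisation. With every probe set by itself, 47 of 49 were lower (7233 lower and 1748 higher over the array) and the precursor median was -3.33. The filter at log2 7 gave -3.61, the mean of probe sets -1.91 (mature minus precursor -1.24), and dim members at their bound -1.85 (-1.29). The cause was not tested where no construction is named. Cspg5 turned to -1.89 and Cacng4 to -1.96 with the poly-A controls, and Omg to 0.42 and 0.65 with the expressed and all-probe-set medians. Signal near the detection limit and 3 arrays per group bound what can be said of Cspg4, Vcan, Olig2 and Enpp6.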
